A study of Mus musculus with 6 samples.

Results

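Dlk1 and 9 further imprinted genes, Meg3, Rian, H19, Igf2, Peg3, Plagl1, Grb10, Mest and Ndn, were followed in the transcriptomes of hair follicle bulge stem cells (SCs) of control and ILK-K5 mice. Dlk1 was chosen by its normalized counts in the comparison described here, in which it fell further in ILK-K5 cells than almost any other gene. The other 9 were picked as imprinted genes of the network to which Dlk1 belongs. They make up 10 of the 43274 genes in the deposited table. Bulge SCs, the quiescent stem cells of the hair follicle, were isolated by FACS as CD34+ cells with high α6 integrin, from skin taken at postnatal day 21. Control mice (labelled ILK +/-) carried 1 floxed and 1 wild-type Ilk allele together with the K5-Cre transgene, and ILK-K5 mice (labelled ILK -/-) carried floxed alleles only together with the same transgene. The keratin 5 promoter drives Cre in the basal keratinocytes of epidermis and hair follicles of both groups, so the controls had lost an Ilk allele there too, and skin cells of other lineages keep their Ilk alleles in both. Each genotype had 3 libraries. The labels do not tie a library to an animal, so the p-values measure the spread between these libraries, which may be technical.

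Imprinted genes are expressed mainly from the copy inherited from one parent, as set by DNA methylation laid down in the germ line. Many of them promote or restrain fetal growth, are silenced in most tissues after birth and stay expressed in some stem and progenitor cells. Several are expressed together across tissues, with the zinc finger protein Plagl1 among the factors that regulate other genes of this network. Dlk1, also called Pref-1, is a transmembrane protein with EGF repeats related to the Notch ligands but without their receptor-binding DSL domain. It is known for keeping preadipocytes and other progenitors undifferentiated. Reads were counted per gene without regard to the parental copy, so the values are the sum over both copies.

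Markers of cell types were examined first, and none of them tests the genotype labels. Reads counted on genes numbered between 8228019 and 11969072 per library, and 1 read corresponded to between 0.726 and 1.52 normalized counts. Ilk itself could not be used as a check, since exons of Taf10 on the opposite strand cover 76.7% of its exon bases and the kit does not mark strand. Its normalized counts lay between 10.6 and 38.5 in control and between 14.8 and 30.9 in ILK-K5 libraries. All 10 bulge markers, among them Krt15, Lhx2 and Sox9, passed the filter on low counts, and their summed level ranged from 73794 to 183107 normalized counts in control and from 53744 to 94597 in ILK-K5 libraries. Most of this sum was Krt15, with means of 58056 in control and 26550 in ILK-K5 libraries, and Krt5, with means of 40023 and 32525. Cd34, a gate of the sort, was the 1 bulge marker called lower. Nfatc1 was also lower without overlap, with means of 1280 and 849 (limma adjusted p = 0.411). Tcf7l1 was higher without overlap, with means of 283 and 368 (limma adjusted p = 0.707). The summed level of 9 macrophage markers ranged from 89.7 to 121 in control and from 9474 to 13131 in ILK-K5 libraries, and all 9 were called higher. Fibroblast markers summed to between 631 and 755 in control and to between 1462 and 2490 in ILK-K5 libraries. Of these, 2 of the 4 that could be tested, Col3a1 and Dpt, were called higher. Collagens made up most of that sum, with means of 428 and 772 for Col1a1, 204 and 393 for Col1a2 and 46.4 and 698 for Col3a1. Pdgfra, below the filter, had means of 6.62 and 8.19. Of all tested genes, 2.93% were called higher and 0.599% lower. The part of these cells in the results on imprinted genes was not tested.

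The promoters of 4 genes are shown, since Dlk1, Plagl1 and Mest were lower in every ILK-K5 library than in every control library and Meg3 shares the imprinted domain of Dlk1 without such a difference. Of all 16368 tested genes, 6.95% were lower and 10.9% higher in this sense, and the fall of Dlk1 is what chose it. The sequences are the plus strand of GRCm38.p6 as given by RefSeq, from 250 bases before a transcription start up to the base before it. In Plagl1 the sequence ends before the first annotated exon within these 250 bases. The starts used for Mest and Plagl1 lie inside the annotated spans of these genes, after the first annotated base. Capitals mark a CCAAT box and a TATA box in Meg3, the sole matches to the motifs described below the sequences.
Dlk1, chr12:109452573-109452822, plus strand: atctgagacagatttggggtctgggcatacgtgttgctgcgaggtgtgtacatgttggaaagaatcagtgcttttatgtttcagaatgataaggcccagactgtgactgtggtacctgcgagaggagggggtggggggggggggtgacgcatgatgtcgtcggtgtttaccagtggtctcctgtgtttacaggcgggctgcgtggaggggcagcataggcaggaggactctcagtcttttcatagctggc
Meg3, chr12:109540746-109540995, plus strand: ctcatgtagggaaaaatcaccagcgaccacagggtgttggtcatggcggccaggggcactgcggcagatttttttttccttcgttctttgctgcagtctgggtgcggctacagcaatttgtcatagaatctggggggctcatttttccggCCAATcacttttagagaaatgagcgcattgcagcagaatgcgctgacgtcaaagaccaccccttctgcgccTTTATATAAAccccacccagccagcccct
Mest, chr6:30737800-30738049, plus strand: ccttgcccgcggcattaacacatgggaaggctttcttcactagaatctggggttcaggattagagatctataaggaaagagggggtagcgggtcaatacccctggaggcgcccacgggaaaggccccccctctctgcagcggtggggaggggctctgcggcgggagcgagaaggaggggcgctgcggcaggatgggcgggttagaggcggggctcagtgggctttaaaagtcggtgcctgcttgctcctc
Plagl1, chr10:13090582-13090690, plus strand: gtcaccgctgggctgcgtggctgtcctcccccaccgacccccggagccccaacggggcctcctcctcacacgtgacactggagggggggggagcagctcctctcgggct
RefSeq promoters were matched for 9 of the 10 genes, with 16 windows of 250 bases before to 50 bases after a start. The window of Dlk1 held 9 CpG pairs and 55.7% GC, that of Meg3 13 pairs, that of Mest printed above 17 pairs and that of Plagl1 26 pairs, where the median over all 32851 promoters was 7 pairs and the upper quartile 20. The windows were searched on both strands for 4 motifs. GGGGCCCC, a site bound by Plagl1, was found in the window of Peg3 and in 1.08% of all promoters. TATAAA was found in that of Meg3, where the matches on both strands overlap, and in 13.6% of all promoters. CCAAT was found in windows of Igf2, Meg3 and Peg3 and in 37.4% of all promoters. CGTGGGAA, the site of the Notch effector Rbpj, was in none of the 16 windows and in 0.734% of all promoters.

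The level of Dlk1 was low but clear in control SCs and near the limit of detection in ILK-K5 SCs. Dlk1 (ENSMUSG00000040856) spans bases 109452823 to 109463336 of chromosome 12 (GRCm38, plus strand). None of its 5657 exon bases lies in exons of another gene of GENCODE M21, which is not the Ensembl 79 annotation named for the reads. Control libraries 1 to 3 held 128, 57.8 and 67.5 normalized counts of Dlk1, and ILK-K5 libraries 1 to 3 held 9.11, 1.54 and 0. The highest ILK-K5 library thus lay far under the lowest control library. Behind these values stood 133, 38 and 93 reads in control and 8, 2 and 0 reads in ILK-K5 libraries. The count of 0 in ILK-K5 library 3 allows up to 3 reads, or 2.92 normalized counts, by counting error alone. The mean was 84.5 ± 38.2 (SD, n = 3) normalized counts in control and 3.55 ± 4.87 in ILK-K5 libraries, a ratio of 23.8. ILK-K5 library 1 held most of the reads behind the ILK-K5 mean, which was 0.771 without it and 5.33 without ILK-K5 library 3. On the log2(normalized count + 1) scale used throughout, the difference was -4.77 (SE 0.89). It ran from -5.66 without ILK-K5 library 1 to -3.99 without ILK-K5 library 3. It is given without a test, because this fall is what put Dlk1 on the list. By this measure Dlk1 ranked 4 from the bottom among all tested genes, with Mrgprb9-ps (-4.81) just before it and Ifitm6 (-4.64) just after it. With so few reads the size also depends on the pseudocount, and was -6.11 with 0.1, -3.45 with 5 and -3.36 on FPKM. In bulk samples such as these, fewer cells of a type and less RNA per cell cannot be told apart. A second row of the table carried the same reads to within 1 read per library, so a gene model used for the counts may overlap Dlk1. That row was not counted again.

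**Figure D1:**
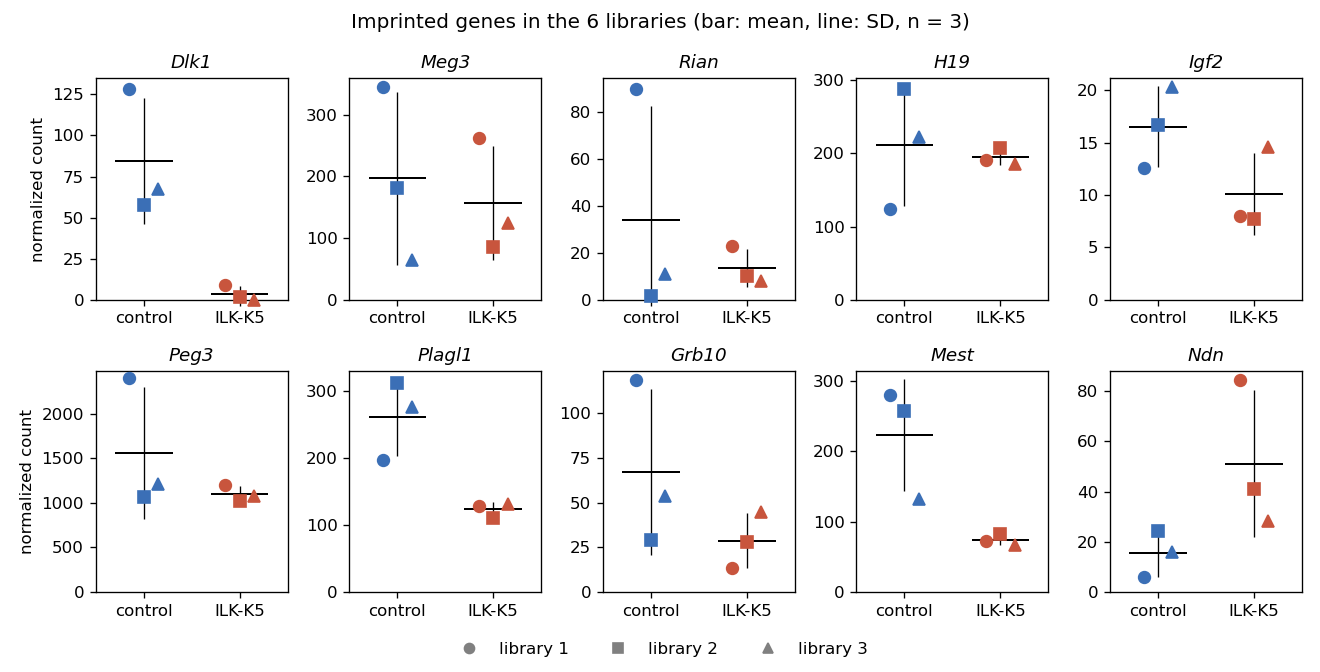
Normalized counts of the 10 imprinted genes in each library, with 1 panel per gene and a y axis of its own that starts at 0. Circles, squares and triangles are libraries 1, 2 and 3 of a genotype, the horizontal line is the mean and the vertical line 1 SD to either side, ended at 0 where it would pass below. Dlk1, Plagl1 and Mest were lower in every ILK-K5 library than in every control library, Ndn was higher in every one, and the other 6 genes overlapped.

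In contrast to Dlk1, the noncoding genes of the same imprinted domain showed overlapping levels in the 2 genotypes. Meg3 and Rian are long noncoding RNAs expressed from the maternal copy of the domain, where Dlk1 is expressed from the paternal copy. Meg3 (plus strand, chromosome 12, 109541001 to 109571726) had 344, 181 and 64.6 normalized counts in control and 262, 84.8 and 124 in ILK-K5 libraries. The library of ILK-K5 with the highest count lay between the 2 highest control libraries. The log2 fold change of Meg3 was -0.18 (SE 0.63, limma with Benjamini-Hochberg adjustment over all tested genes, adjusted p = 0.961). Rian (plus strand, chromosome 12, 109603940 to 109661716), the host of many small nucleolar RNAs, had 89.7, 1.52 and 10.9 normalized counts in control and 22.8, 10.03 and 7.79 in ILK-K5 libraries, all within the range of the controls. Its log2 fold change of -0.08 had an SE of 1.19, so that only a very large difference would have been detectable. Annotated genes on the same or the opposite strand share 8.29% of the exon bases of Meg3 and 3.42% of those of Rian.

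Reads of the same library gave a view of this domain that scaling between libraries does not touch. In control libraries 1 to 3, the reads on Meg3 were 2.68, 3.13 and 0.957 times those on Dlk1. In ILK-K5 libraries 1 and 2, they were 28.75 and 55.0 times those on Dlk1, and in library 3 there were 127 reads on Meg3 and 0 on Dlk1. These ratios contain the fall of Dlk1 that was used for the choice and are given as a description. Of the 112 annotated genes in the table that start within 1000 kb of the start of Dlk1, 12 besides Dlk1 passed the filter. Limma, DESeq2 and edgeR each called 0 of these 12, and 0 had an unadjusted p under 0.05 by any of the 3 tools. Of all tested genes, limma called 2.93% higher and 0.599% lower, and 12.3% had an unadjusted p under 0.05, so that 0 of 12 is near the background. Their log2 fold changes lay between -0.29 and 1.19 with a median of 0.31. Rtl1, Mirg and Dio3, further imprinted genes of the domain, had 0 to 12 reads per library and were not tested.

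**Figure D2:**
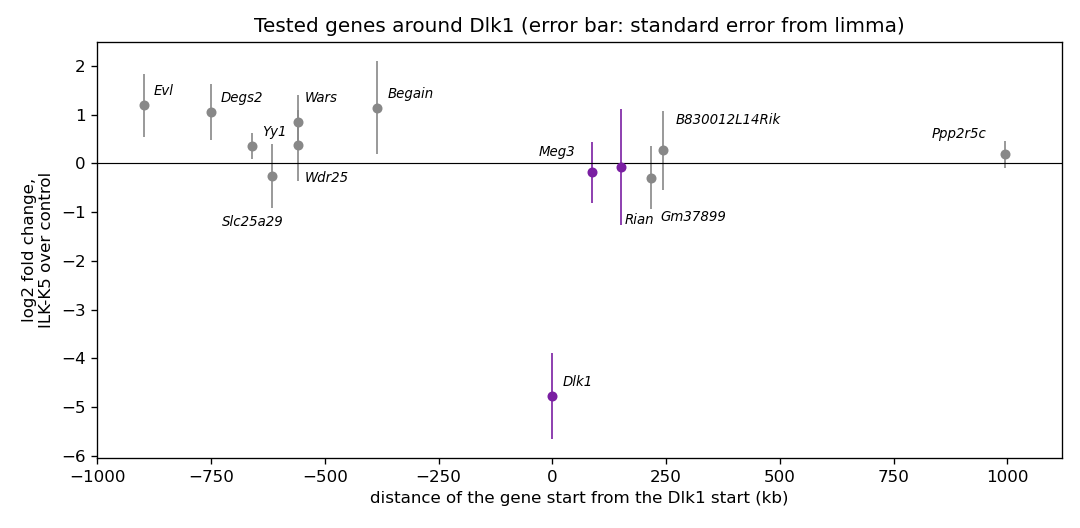
Log2 fold change between ILK-K5 and control libraries (y axis, error bars 1 SE) of the tested genes against the distance of their start from that of Dlk1 (x axis, kb). Dlk1 lies at -4.77 and is the one gene far under 0, with its 12 tested neighbours between -0.29 and 1.19.

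Among the other imprinted growth regulators, Mest and Plagl1 were lower in all ILK-K5 libraries, with differences that missed the threshold on the adjusted p. Mest, a paternally expressed gene whose product resembles a hydrolase, spans bases 30723547 to 30748465 of chromosome 6 (plus strand). It had 279.8, 257 and 132 normalized counts in control and 72.9, 82.5 and 67.2 in ILK-K5 libraries. All 3 ILK-K5 libraries lay close together under the lowest control library. The means were 223 ± 79.5 and 74.2 ± 7.74 (SD, n = 3 each), and the log2 fold change was -1.51 (SE 0.38, limma adjusted p = 0.0702). Of the exon bases of Mest, 23.1% lie in exons of Copg2 on the opposite strand. Copg2, named here for this overlap, had a log2 fold change of -0.44 (limma adjusted p = 0.613).

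Plagl1, also called Zac1, a zinc finger transcription factor and paternally expressed regulator within the network, spans bases 13060504 to 13131694 of chromosome 10 (plus strand). It had 198, 312 and 276 normalized counts in control and 129, 110.3 and 132 in ILK-K5 libraries. The ILK-K5 libraries again lay close together and did not overlap the controls. The means were 262 ± 58.3 and 123 ± 11.5 (SD, n = 3 each), and the log2 fold change was -1.06 (SE 0.31, limma adjusted p = 0.127). With reads in place of normalized counts, DESeq2 called both genes lower, with an adjusted p of 0.00367 for Mest and 0.0249 for Plagl1, where edgeR's quasi-likelihood test called neither. Mest was also called by limma without control library 3 (adjusted p = 0.0233), its lowest control library.

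The differences of the receptor adaptor Grb10 and the zinc finger protein Peg3 were not called and came mostly from the libraries numbered 1. Grb10, which binds the insulin and Igf1 receptors and restrains growth, spans bases 11930508 to 12038683 of chromosome 11 (minus strand). It had 119, 28.9 and 53.7 normalized counts in control and 13.7, 27.8 and 44.8 in ILK-K5 libraries, with a log2 fold change of -1.11 (SE 0.65, limma adjusted p = 0.610). Its control library 1 was the highest of all 6 and its ILK-K5 library 1 the lowest. The difference was -3.03 between the libraries numbered 1 and -0.16 between those numbered 2 and 3. Peg3, a paternally expressed gene at bases 6703892 to 6730431 of chromosome 7 (minus strand), had 2403, 1066 and 1205 normalized counts in control and 1201, 1022 and 1078 in ILK-K5 libraries. Only control library 1 stood apart, and the log2 fold change was -0.41 (SE 0.33, limma adjusted p = 0.772). Without that library it was -0.046, and between the libraries numbered 2 and 3 it was -0.11.

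H19 and Igf2, the reciprocally imprinted pair on chromosome 7, showed no called difference. H19, a noncoding RNA of the maternal copy that hosts a microRNA, lies on the minus strand from 142575529 to 142578143. It had 123, 287 and 223 normalized counts in control and 191, 207 and 186 in ILK-K5 libraries, with a log2 fold change of -0.04 (SE 0.36, limma adjusted p = 0.988). All ILK-K5 libraries lay inside the range of the controls. Igf2, the growth factor of the paternal copy on the same strand from 142650766 to 142666816, had 12.5, 16.7 and 20.3 normalized counts in control and 7.97, 7.71 and 14.6 in ILK-K5 libraries. Only ILK-K5 library 3 reached into the control range, and the log2 fold change was -0.69 (SE 0.63, limma adjusted p = 0.805). The count of Igf2 is uncertain, since it rests on 7 to 28 reads per library. Of its exon bases, 62.8% also belong to Gm49394, a longer gene model on the same strand. That model has no row in the table, and whether it bears on the count of Igf2 was not tested.

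Ndn was the 1 gene of the 10 with higher counts in every ILK-K5 library. Ndn, which encodes necdin, a growth-restraining protein of the paternal copy, has 1 exon, at bases 62346569 to 62350262 of chromosome 7 (plus strand). It had 5.79, 24.3 and 15.96 normalized counts in control and 84.2, 40.9 and 28.2 in ILK-K5 libraries. The 2 genotypes came close, at 24.3 and 28.2, but did not overlap. The means were 15.4 ± 9.28 and 51.1 ± 29.4 (SD, n = 3 each), and the log2 fold change of 1.72 (SE 0.68) did not pass the threshold (limma adjusted p = 0.310). It was 3.65 between the libraries numbered 1 and 0.76 between those numbered 2 and 3. The fibroblast markers described above, at 2490 in ILK-K5 library 1 and 1462 in ILK-K5 library 3, were in the same order over the ILK-K5 libraries as Ndn. Over the control libraries they were not, with Ndn highest and the fibroblast markers lowest (631) in control library 2. Their part in the difference was not tested.

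In total, limma called 0 of the 9 genes besides Dlk1, where it called 2.93% of all 16368 tested genes higher and 0.599% lower. At an unadjusted p under 0.05 there were 3 of the 9, Plagl1, Mest and Ndn, beside 12.3% of all tested genes. DESeq2 called 2 of the 9 lower and 0 higher, beside 1.71% and 4.72% of the genes it tested, and edgeR called 0 of the 9, beside 0.532% lower and 2.58% higher. Libraries did not overlap for 2 lower and 1 higher of the 9, beside 6.95% and 10.9% of all genes. The log2 fold change was below 0 for 8 of the 9, with a median of -0.41, and below 0 for 8103 of the 16368 genes, with a median of 0.0054. With 9 genes these counts are small, and they describe the list without a test of it.

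Compared per length, the genes covered a wide range of levels in control SCs. Peg3 had the highest mean, with 8.21 to 18.5 FPKM over the 3 libraries, followed by H19 with a mean of 9.13 ± 3.57 FPKM (SD, n = 3), Mest at 5.81 FPKM and Plagl1 at 3.44 FPKM. Dlk1 came next at 1.53 ± 0.693 FPKM, at the 29.1 percentile of all tested genes. Under it came Meg3 at 1.11 FPKM, Ndn at 0.953 FPKM, Grb10 at 0.757 FPKM, Igf2 at 0.296 FPKM and Rian at 0.200 FPKM. The control ranges of neighbours in this order overlapped, except that Dlk1 (1.05 to 2.33 FPKM) lay wholly under Plagl1 (2.59 to 4.09 FPKM). In ILK-K5 SCs the mean of Dlk1, 0.0644 FPKM, was the lowest of the 10, but its range (0 to 0.165 FPKM) overlapped those of Rian (0.0457 to 0.134 FPKM), Igf2 (0.138 to 0.262 FPKM) and Grb10 (0.154 to 0.506 FPKM).

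**Figure D3:**
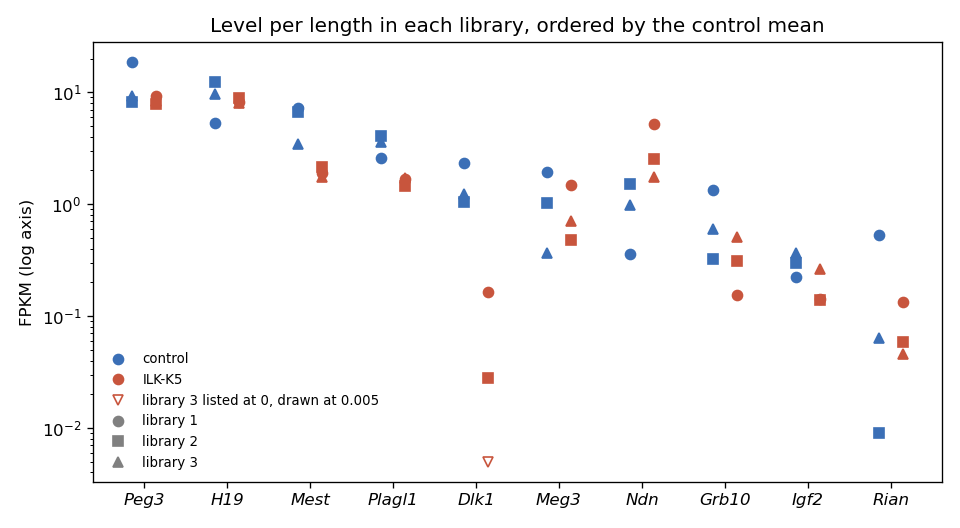
FPKM on a log axis of each imprinted gene in every library, ordered from left to right by the control mean from Peg3 to Rian at 0.200 FPKM. Blue points are control and red points ILK-K5 libraries, with a marker shape per library number, and the open triangle is the ILK-K5 library in which Dlk1 is listed at 0.

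Libraries numbered 1 stood apart for some of these genes. Dlk1, Meg3, Rian and Peg3 had their highest count in library 1 in both genotypes. The labels repeat the same library number in both genotypes for libraries 1, 2 and 3, without saying what it marks. Within the libraries numbered 2 and 3 the log2 difference of Dlk1 was -5.31 and within those numbered 1 it was -3.68. The corresponding values were -1.30 and -1.93 for Mest and -1.28 and -0.62 for Plagl1. Rian, in contrast, was 0.85 and -1.93, and H19 was -0.37 and 0.63, so that their direction differed between the library numbers. A term in the limma fit then set the libraries numbered 1 against those numbered 2 and 3. With it, Mest (adjusted p = 0.0240) and Plagl1 (adjusted p = 0.0437) were both called lower. With a separate term for each library number, limma called Mest lower but not Plagl1.

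The profile of Dlk1 over the 6 libraries was closest to those of Pik3c2g (Pearson's r = 0.994 on log2 values), Hopxos (0.992), Gm28362 (0.987), C1qtnf3 (0.986) and Slit3 (0.984). All 5 were high in the control and low in the ILK-K5 libraries, as Dlk1 was. Pik3c2g, a lipid kinase, had 83.9, 54.7 and 76.2 normalized counts in control and 31.9, 15.4 and 10.7 in ILK-K5 libraries. The quartiles of r over all tested genes were -0.466 and 0.416. Among the imprinted genes, r with Dlk1 was 0.867 for Mest, 0.807 for Plagl1 and 0.601 for Peg3, between 0.250 and 0.450 for Igf2, Grb10, Meg3 and Rian, -0.081 for H19 and -0.619 for Ndn. These are descriptions over 6 libraries that share the difference between the genotypes.

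The network was extended to 7 further imprinted genes of the same co-expression network, all of which were tested. Limma, DESeq2 and edgeR each called 1 of the 7 higher, beside 2.93%, 4.72% and 2.58% of the genes that tool tested. Each called 0 lower, beside 0.599%, 1.71% and 0.532%. The called gene was Gatm, the enzyme of the first step of creatine synthesis, which was higher in the ILK-K5 libraries. It had 1.93, 1.52 and 1.45 normalized counts in control and 106, 152 and 101 in ILK-K5 libraries. The controls were at or under 3 reads each, so that the ILK-K5 libraries held a level of Gatm at least 37.3-fold higher (limma log2 fold change 5.50, SE 0.56, adjusted p = 8.75e-04). The macrophage markers rose between the same libraries, from at most 121 to at least 9474 normalized counts, and their part in the rise of Gatm was not tested. Slc38a4, an amino acid transporter, had 598, 731 and 588 normalized counts in control and 787, 1175 and 1148 in ILK-K5 libraries. Its libraries did not overlap, but its log2 fold change of 0.68 was not called (limma adjusted p = 0.310).

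The other 5 genes overlapped between the genotypes. The log2 fold change was 0.43 for Igf2r, the receptor that clears Igf2, and 0.61 for the proteoglycan decorin (Dcn). It was 0.25 for the sarcoglycan Sgce, 0.04 for the G protein subunit Gnas and -0.18 for the cell cycle inhibitor Cdkn1c. The limma adjusted p of these 5 lay between 0.841 and 0.982.

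A wider list of 51 mouse genes with imprinted expression in at least 1 tissue had 49 in the table and 27 tested. Whether the genes of these lists are imprinted in bulge SCs was not tested. Limma, DESeq2 and edgeR each called 0 of these 27. Of the genes each tool tested, they called 2.93%, 4.72% and 2.58% higher and 0.599%, 1.71% and 0.532% lower. In limma, 2 of the 27 had an unadjusted p under 0.05, beside 12.3% of all tested genes. In each of the other tools 1 did. Among those with the highest FPKM, the histone chaperone Nap1l4 had a log2 fold change of -0.17, the lactonase Pon2 0.23 and the tetraspanin Cd81 0.17. The libraries of 4 of the 27 genes lay lower in ILK-K5 SCs without overlap and those of 1 higher, beside 6.95% and 10.9% of all tested genes. The 4 lower genes were Ascl2 (-2.46, limma adjusted p = 0.192), Snrpn (-1.01), Osbpl5 (-0.50) and Copg2 (-0.44). The higher gene was Sfmbt2 (1.69). These names were chosen after their values were seen. Ascl2, a bHLH transcription factor, had 29.9, 36.5 and 53.0 normalized counts in control and 2.28, 22.4 and 3.90 in ILK-K5 libraries. The gap between the genotypes, from 22.4 to 29.9, was smaller than the spread within either. Over both lists of further imprinted genes, 34 were tested, 1 was called higher and 0 lower, with a median log2 fold change of -0.17. Of all tested genes, 2.93% were called higher and 0.599% lower by the same limma test.

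**Figure D4:**
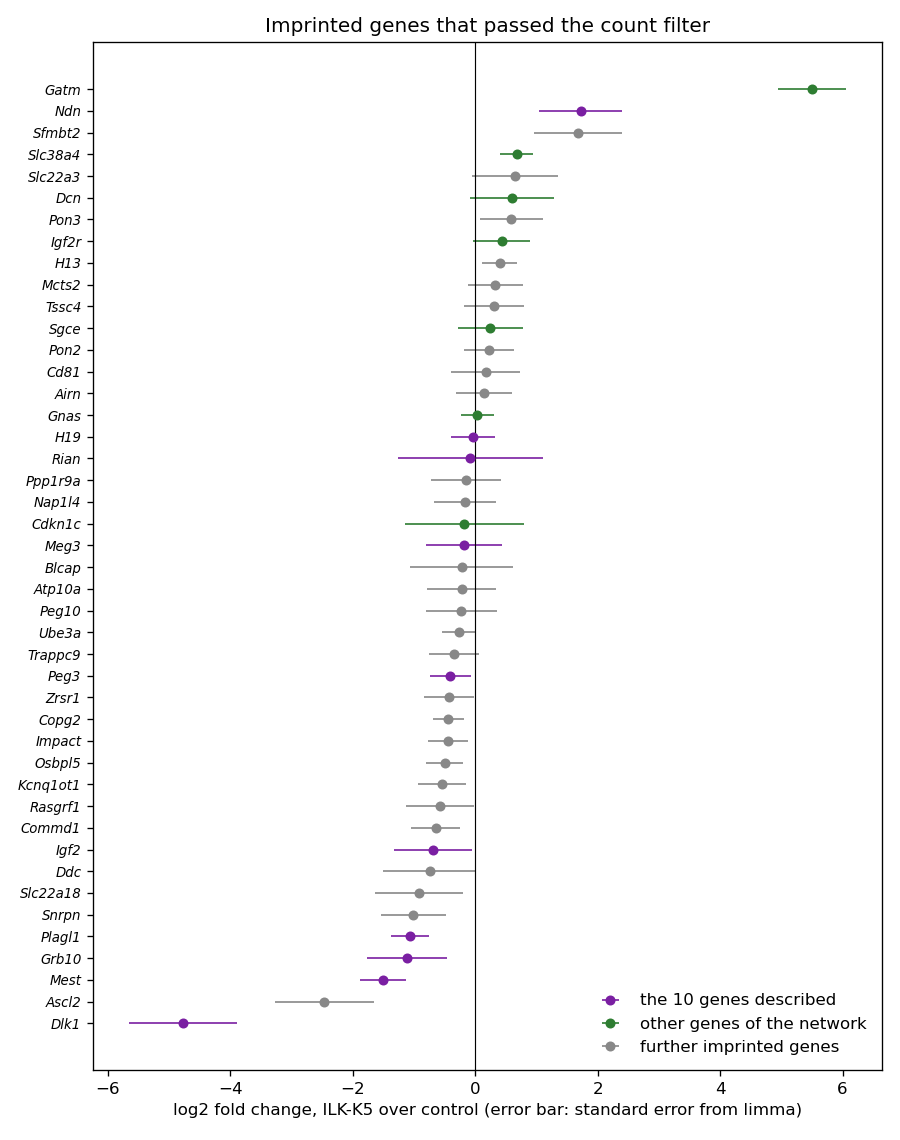
Log2 fold change between ILK-K5 and control libraries with 1 SE of the tested imprinted genes, ordered by size. Purple points are the 10 genes followed here, green points other genes of the network and grey points further imprinted genes. The 10 genes run from Dlk1 at -4.77 to Ndn at 1.72, and Gatm at 5.50 lies apart at the upper end.

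Of 8 listed partners of Igf2, H19 and Grb10, 7 were tested, and 1 rose, beside 2.93% of all tested genes. Igf1, a growth factor that shares the Igf1 receptor with Igf2, had 16.4, 19.8 and 14.5 normalized counts in control and 539, 842 and 777 in ILK-K5 libraries (limma log2 fold change 5.32, SE 0.34, adjusted p = 1.40e-04). It stood beside the same rise of macrophage markers, whose part in it was not tested. The receptors Igf1r (0.35) and Insr (0.11) were not called, with these log2 fold changes. The adaptor Irs1, named after its values were seen, was at -1.01 with libraries that did not overlap (limma adjusted p = 0.289).

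Of 11 genes around Dlk1 and Notch, 10 were tested, and 1 fell, beside 0.599% of all tested genes. Hey1, a transcriptional repressor induced by Notch, had 51.1, 54.7 and 63.1 normalized counts in control and 7.97, 3.09 and 11.7 in ILK-K5 libraries. The means were 56.3 ± 6.15 and 7.58 ± 4.32 (SD, n = 3 each), with a log2 fold change of -2.88 (SE 0.61, limma adjusted p = 0.0336). DESeq2 and edgeR also called Hey1 lower on all 6 libraries, beside 1.71% and 0.532% of the genes they tested. The limma call was lost when any 1 library was left out, with an adjusted p between 0.0591 and 0.132, while the log2 fold change stayed between -3.24 and -2.42. Adam17, a protease that releases the extracellular part of Dlk1, had a log2 fold change of 0.15. The receptors Notch1 (0.52) and Notch2 (0.24), the ligands Jag1 (0.68) and Jag2 (-0.07) and the target Hes1 (0.39) were not called either. Dlk2, the paralogue of Dlk1, had between 3.86 and 31.2 normalized counts in control and between 5.40 and 22.4 in ILK-K5 libraries.

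The list of DNA methyltransferases and zinc finger proteins that maintain or read imprints had 10 genes, of which 7 were tested. Limma, DESeq2 and edgeR each called 0 of these 7, and 0 had an unadjusted p under 0.05 by any of the 3, near the background of 2.93% called higher, 0.599% called lower and 12.3% at the unadjusted p in limma. The maintenance methyltransferase Dnmt1 had a log2 fold change of -0.36, the corepressor Trim28 of 0.16 and the insulator protein Ctcf of 0.09. Dnmt3b, a de novo methyltransferase named after its values were seen, was at 1.49 with libraries that did not overlap (limma adjusted p = 0.460).

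Markers of other skin cell types, some of which are known to express Dlk1, were measured in the same libraries. Each sum was dominated by a few genes, and the genes of a list did not all go the same way. Of the 14 tested genes in these 6 lists, limma called 0, beside 2.93% of all tested genes called higher and 0.599% lower. By limma, 6 of the 14 had an unadjusted p under 0.05, beside 12.3% of all tested genes. DESeq2 called Acta2, Pdgfrb and Tyrp1 higher and Hhip and Tek lower, beside 4.72% and 1.71% of the genes it tested. Pdgfrb was called higher by edgeR, beside 2.58%. The part of these cells in the fall of Dlk1 was not tested.

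The 5 dermal papilla markers summed to between 78.4 and 117 normalized counts in control and to between 44.4 and 158 in ILK-K5 libraries, with Sox2 at 0 in all. Crabp1 made up most of the ILK-K5 sum, with means of 37.5 in control and 108 in ILK-K5 libraries. Hhip, an inhibitor of hedgehog signalling, had 71.4, 66.9 and 13.1 normalized counts in control and 5.69, 6.94 and 7.79 in ILK-K5 libraries, lower without overlap (log2 fold change -2.40, limma adjusted p = 0.159). Alpl, below the filter, had 23.2, 0 and 1.45 in control and 0, 2.31 and 0 in ILK-K5 libraries.

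The 5 endothelial markers summed to between 60.2 and 178 in control and to between 81.8 and 93.4 in ILK-K5 libraries. Among them, the angiopoietin receptor Tek had 54.0, 41.1 and 22.5 normalized counts in control and 5.69, 11.6 and 8.77 in ILK-K5 libraries, lower without overlap (log2 fold change -2.02, limma adjusted p = 0.144), and Pecam1 had a log2 fold change of 0.68. Pericyte and smooth muscle markers summed to between 10.6 and 78.1 in control and to between 102 and 162 in ILK-K5 libraries. That sum was mostly Acta2, with means of 22.5 and 96.9. Pdgfrb was also higher without overlap, with means of 0.484 and 19.9 (limma adjusted p = 0.0519). Rgs5 had means of 6.69 and 6.73, Myh11 of 12.9 and 2.95 and Des of 1.05 and 1.53.

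The 5 adipocyte markers summed to between 45.3 and 174 in control and to between 96.8 and 269 in ILK-K5 libraries. Most of that sum was Cebpa, with means of 84.8 and 149. Adipoq was at 0 in all, and Pparg was higher without overlap (limma adjusted p = 0.133). The skeletal muscle markers summed to between 68.9 and 101 and to between 71.1 and 97.9, nearly all of it Acta1. Myog was at 0 in all, and Ckm and Myh3 were at 0 to 3.86 normalized counts in each library. Melanocyte markers summed to between 83.6 and 173 and to between 77.1 and 224, with Tyrp1 higher without overlap (log2 fold change 3.29). Hhip, Tek, Pparg, Tyrp1 and the other genes of these lists named here were chosen after their values were seen.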

How the data were processed

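RNA of FACS-sorted CD34+ bulge SCs was amplified with the Ovation RNA-Seq System V2, prepared with the Nextera XT kit and read as pairs of 100 bases. Per the submitters' processing notes and the study's methods, adapters and ribosomal reads were removed and reads were aligned to GRCm38 (Ensembl 79) with TopHat2 2.0.14 and Bowtie2 2.2.4. The counting program, and how it treated overlapping genes, are not given in the sources used here. The authors deposited a signal table of normalized counts, made by dividing counts by DESeq2 (1.6.3) size factors, and an FPKM table. All values of the first were whole reads divided by a size factor within a tolerance of 0.001, and each FPKM was the normalized count times a constant per gene. The deposited tables of the authors' own comparison hold log2 fold changes, standard errors, test statistics and p-values and were not used.

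Coordinates and exon overlaps came from GENCODE M21 (GRCm38), which gave a symbol to 97.3% of the rows. Genotypes were compared with limma 3.58.1 (lmFit, eBayes with a trend, two-sided) in R 4.3.3 on log2(normalized count + 1), for 16368 genes whose mean over the libraries reached 10 normalized counts. A call required an adjusted p of at most 0.05 (Benjamini-Hochberg over all tested genes). With 3 libraries against 3, an exact permutation test on 1 gene cannot go below 0.1. Where no control library exceeded 3 reads, the control level was set to that floor, averaged over the 3 libraries, and the fold is a lower bound. Intervals and floors cover counting error only.

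The 10 genes, the gene lists and the tests were chosen with earlier results of these data known. Named are the 10 genes, every called gene of 5 lists with up to 6 more of each by mean FPKM, genes sharing exons with the 10, and the 5 genes most correlated with Dlk1. Alternatives were DESeq2 1.42.0 and edgeR 4.0.16 on the recovered reads, TMM factors, the FPKM table, a pseudocount of 0.1 or 5, no filter or a mean of at least 50, a replicate block, a library number term and leaving out each library. The library number term set the libraries numbered 1 against those numbered 2 and 3. The replicate block had a term for each number. Marker lists covered bulge SCs, macrophages, fibroblasts, adipocytes, skeletal muscle, dermal papilla, mural, endothelial and melanocyte cells. The fit was tested on simulated data. Tables and plots were made in Python 3.11.15 with pandas 2.3.3 and matplotlib 3.10.9.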

Additional observations from a re-analysis of the deposited data

How the results depend on the processing

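Across the alternatives, 731 recomputed values kept their direction and their side of the threshold, or stayed within the limits set for counts, and 29 turned direction. The number of all genes called higher and lower was 479 and 98 as reported, 772 and 280 with DESeq2 and 846 and 286 with a library number term. It lay between 217 and 554 higher and between 32 and 93 lower when 1 library was left out. Of the 9 imprinted genes besides Dlk1, 2 were called lower with DESeq2 and 2 with the library number term, both times Mest and Plagl1. Leaving out 1 library gave 0 to 1, with Mest called without control library 3. Hey1, the 1 associated gene called lower, was not called (0) with a mean of at least 50, where it fails the filter, with a pseudocount of 0.1 (adjusted p = 0.0508), with libraries 2 and 3 only (adjusted p = 0.0850), a setting chosen after seeing the data, or without any 1 library (0 to 0). In the remaining settings, among them DESeq2, edgeR, TMM factors, the FPKM table and the library number term, Hey1 was called lower. Beyond the filter and the fewer libraries, the cause of the lost calls was not tested. No result turned direction under another scaling, where the median log2 fold change of all genes stayed between -0.06 and 0.03.

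With the replicate number as a block, limma called 848 genes higher and 269 lower, and 1 of the 9 imprinted genes, Mest (adjusted p = 0.0166). The deviations of same-numbered libraries from their group means correlated at 0.53, 0.020 and 0.31, and not every library correlated best with its own number, so that no pairing was assumed. The labels do not say what the number marks.

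Directions turned for genes with small differences. Rian was at 0.064 with a pseudocount of 0.1, and Gnas at -0.10 with libraries 2 and 3 only. Without 1 library, the lowest and highest log2 fold changes were -0.83 and 0.37 for Meg3, -1.31 and 1.27 for Rian, -0.38 and 0.23 for H19, -0.0077 and 0.93 for Igf2r, -0.22 and 0.70 for Sgce, -0.13 and 0.15 for Gnas, -1.21 and 0.53 for Cdkn1c, -0.67 and 0.31 for Nap1l4, -0.12 and 0.62 for Pon2, -0.25 and 0.77 for Cd81, -0.074 and 0.30 for Insr, -0.035 and 0.64 for Igf1r, -0.0075 and 0.24 for Adam17, -0.57 and 0.63 for Jag2, -0.12 and 0.26 for Ctcf and -0.031 and 0.51 for Trim28. Depth limits the rarest of these genes, with 7 to 28 reads per library for Igf2 and 1 to 93 for Rian.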
